A study of Mus musculus with 5 samples.

Results

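The nuclear genes of oxidative phosphorylation were described in single cells sorted from mouse bone marrow. They were chosen by symbol: genes starting with Ndufa, Ndufb, Ndufc, Ndufs or Ndufv and a digit, with Uqcr, Cox4i, Cox5, Cox6, Cox7, Cox8 or Atp5, and Sdha, Sdhb, Sdhc, Sdhd and Cycs, with -ps pseudogenes left out. This gave 85 of the 27998 genes in the tables, all of them protein-coding, of which 35 belong to complex I, 4 to complex II, 8 to complex III, 20 to complex IV and 17 to complex V, with 1 gene for cytochrome c.

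Oxidative phosphorylation makes most of the ATP of a resting cell. Complex I (NADH dehydrogenase) and complex II (succinate dehydrogenase) pass electrons through ubiquinone to complex III, cytochrome c carries them to complex IV (cytochrome c oxidase), and complex V (ATP synthase) uses the resulting proton gradient. A small core of the subunits is encoded in mitochondrial DNA and the rest in the nucleus, so both genomes have to supply each of these enzymes except complex II. B cells develop in the marrow from pro-B cells, which carry the surrogate light chain of the pre-B cell receptor, through a burst of division to small resting pre-B cells and then to immature B cells with MHC class II on their surface.

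There were 5 libraries of the Nes-GFP mouse strain, a reporter line in which the Nestin promoter drives GFP. The 3 young libraries (replicates 1, 2 and 3) came from mice of 10 to 12 weeks and the 2 aged libraries (replicates 2 and 3) from mice older than 20 months, and no other genotype or agent is labelled. All were sorted as CD45-negative, CD31-positive endothelial cells from the endosteal marrow, frozen, thawed and counted at the 3' end of each polyadenylated RNA with unique molecular identifiers (UMIs), with PCR cycles set library by library. The number of mice behind a library is not given in the sources used here, so a p-value measures only the spread between these libraries. The labelled cell type was checked against its markers. Only 22 of 2116 kept cells formed an endothelial-like cluster, in which all 11 endothelial markers were detected, whereas 729 cells were dividing and 1178 non-dividing cells of the B lineage and 187 were myeloid-like, and all of the comparisons concern those.

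Total UMIs per library ran from 935656 to 5900751. Young replicate 1 stood apart: it held the most UMIs, 593 of the 729 dividing B-lineage cells, 175 of the 187 myeloid-like cells and 8 pre-B-like cells. Replicate 2 of either age held Y-linked UMIs and no Xist UMI, and the other 3 libraries held Xist UMIs and at most 2 Y-linked UMIs. The 5 libraries shared 5 cell barcodes between pairs, 3 of them between young replicate 2 and aged replicate 2. Cells were sorted into classes by clustering without any of the 85 genes. The non-dividing B-lineage cells were pro-B-like (295 cells, led by Vpreb2, Dntt, Vpreb1 and Igll1), pre-B-like (649 cells, the main cluster led by Cd2, Rgs16 and Pim2) and MHC-II-positive (234 cells, the main cluster led by H2-Aa, Cd74 and H2-Ab1). The dividing ones were S-phase (271 cells, led by Ung, Nrgn and Cdca7) and G2/M (458 cells, the main cluster led by Esco2, Hist1h2ae and Neil3). The G2/M class carried S-phase markers as well. The pre-B-like class included a cluster of 84 cells, 59 of them from aged replicate 2, whose marker levels were mixed. In it the pro-B markers had a UMI in 53.9% of cells on average, and 8 of them in at least 10%, against 31.0% and 4 for the small pre-B markers. Without that cluster dividing cells had 53 of the set higher and 3 lower, pre-B-like cells 14 lower and 0 higher, and the median for age in non-dividing cells was -0.164, in the comparisons described below. Counts were summed per class and library, where a library held at least 10 cells of the class, and levels are given in CPM, a gene's UMIs over all UMIs of that sum on the usual scale. Values of 5 libraries are listed in the order young replicates 1, 2 and 3, then aged replicates 2 and 3. A CPM is a share of a cell's RNA, and the median UMIs per cell were 4256 in dividing and 2246 in non-dividing cells, so the absolute amount per cell was not measured by it.

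The upstream sequences of 67 of the 85 genes were found in RefSeq's table for GRCm38.p6. They are shown for 5 genes picked by hand among those that changed, which do not stand for the set. Atp5g2, Cycs and Cox6a1 were higher in dividing cells, Ndufa6 and Cox7a2l lower. Each line is the 250 bases before the annotated start, 5′ to 3′ on the gene's strand, which is the minus strand for all 5. Capitals mark matches on either strand to a core of nuclear respiratory factor 1 (GCATGCGC) or of the ETS family that includes GABP (CCGGAAG), and overlapping matches run together. The windows are chr15:102671048-102671297, chr6:50566570-50566819, chr5:115348959-115349208, chr15:82354292-82354541 and chr17:83514334-83514583.
Atp5g2: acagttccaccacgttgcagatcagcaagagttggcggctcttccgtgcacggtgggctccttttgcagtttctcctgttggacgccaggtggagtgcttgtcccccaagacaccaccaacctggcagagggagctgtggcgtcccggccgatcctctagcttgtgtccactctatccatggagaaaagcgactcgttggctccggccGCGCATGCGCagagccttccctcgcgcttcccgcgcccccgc
Cycs: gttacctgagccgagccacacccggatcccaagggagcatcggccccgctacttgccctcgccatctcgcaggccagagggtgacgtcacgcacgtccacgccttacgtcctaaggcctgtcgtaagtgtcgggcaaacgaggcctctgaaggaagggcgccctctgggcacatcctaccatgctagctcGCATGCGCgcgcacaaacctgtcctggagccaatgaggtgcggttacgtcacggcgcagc
Cox6a1: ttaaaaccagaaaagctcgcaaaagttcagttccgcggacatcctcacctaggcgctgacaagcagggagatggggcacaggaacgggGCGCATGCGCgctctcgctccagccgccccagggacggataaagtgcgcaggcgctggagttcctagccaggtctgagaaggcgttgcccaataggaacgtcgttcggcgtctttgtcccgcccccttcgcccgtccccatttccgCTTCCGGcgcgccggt
Ndufa6: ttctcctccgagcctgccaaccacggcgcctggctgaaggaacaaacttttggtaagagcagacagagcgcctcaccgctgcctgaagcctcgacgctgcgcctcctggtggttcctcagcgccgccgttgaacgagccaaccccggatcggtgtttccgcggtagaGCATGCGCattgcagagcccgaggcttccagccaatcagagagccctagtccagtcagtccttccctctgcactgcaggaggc
Cox7a2l: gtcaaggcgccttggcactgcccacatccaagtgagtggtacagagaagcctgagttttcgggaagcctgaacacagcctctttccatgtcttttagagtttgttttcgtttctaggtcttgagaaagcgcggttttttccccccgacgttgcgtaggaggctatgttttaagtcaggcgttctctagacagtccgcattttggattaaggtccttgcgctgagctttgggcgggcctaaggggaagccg

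The first core was in the 250 upstream bases of 9 of the 67 genes, or 13.4%, against 3.32% of 17492 protein-coding genes. Those 9 were Ndufa6, Ndufa8, Ndufa11, Sdhb, Cox6a1, Cycs, Atp5g2, Atp5k and Atp5l. Uqcr11, Atp5j, Atp5g3, Atp5g1, Ndufb6, Ndufv1 and Cox5a, which rose in dividing cells and are not printed, lacked that core. The ETS core was in 12 of 67, or 17.9%, against 10.2%, and the YY1 core ATGGCGG in 4, or 5.97%, against 3.0%. The printed Atp5g2 and Cycs windows held the first core, Cox6a1 held that core and the ETS core, and Ndufa6, which was lower in dividing cells, held the first core too. The Cox7a2l window held none of the 3 cores, which says only that these letters are not in it. Among the genes not found in the table were Atp5a1, Atp5f1, Atp5mpl, Atp5s, Cox4i1, Cox4i2, Cox6a2, Cox6c, Cox8c, Ndufa2, Ndufa4l2, Ndufb9, Ndufs1, Sdhc, Uqcrb, Uqcrc2 and Uqcrq.

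The 85 genes lay on 19 chromosomes, with Ndufa1, Ndufb11 and Cox7b on the X chromosome. They gave 250431 UMIs, 2.76% of all UMIs in kept cells. At least 1000 UMIs were counted for 71 of them and fewer than 100 for 7, and the 10 most counted gave 29.84% of the set's UMIs. Cox7b2, Cox8b and Cox8c, isoforms of testis or of heart and muscle, had no UMI in any kept cell. An exon of 29 genes overlapped an exon of another annotated gene, for 26 of them on the opposite strand. Whether the counting used strand is not given in the sources used here, so reads of those pairs may not be told apart, among them Cox6a2 with Itgad, Atp5j with Gabpa and Ndufb5 with Mrpl47. For 4 genes, Atp5g2, Ndufb2, Ndufb8 and Ndufb9, an exon overlapped on the same strand, where strand would not help.

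The summed share of UMIs from the 85 genes differed between the cell classes. In dividing cells the share was 3.23%, 2.39%, 2.27%, 2.39% and 2.34%, and in non-dividing B-lineage cells 2.64%, 1.85%, 1.92%, 1.97% and 2.01%. Dividing cells were the higher class in 5 of 5 libraries. The groups overlapped through young replicate 1, whose non-dividing cells were above the dividing cells of the other 4 libraries. Among the stages the share was lowest in pre-B-like cells, at 1.63%, 1.68%, 1.81% and 1.78% in the 4 libraries other than young replicate 1. It was 2.86%, 2.22%, 2.12%, 2.19% and 2.24% in pro-B-like cells and 2.58%, 2.103%, 2.06%, 2.23% and 2.17% in MHC-II-positive cells, and neither range reached down to the pre-B-like one. S-phase cells had 3.67%, 2.66%, 2.45%, 2.38% and 2.46%, and G2/M cells 2.80%, 1.83%, 2.04% and 2.19% without aged replicate 2, which held 5 such cells. Myeloid-like cells of young replicate 1 had 3.30%.

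**Figure D1:**
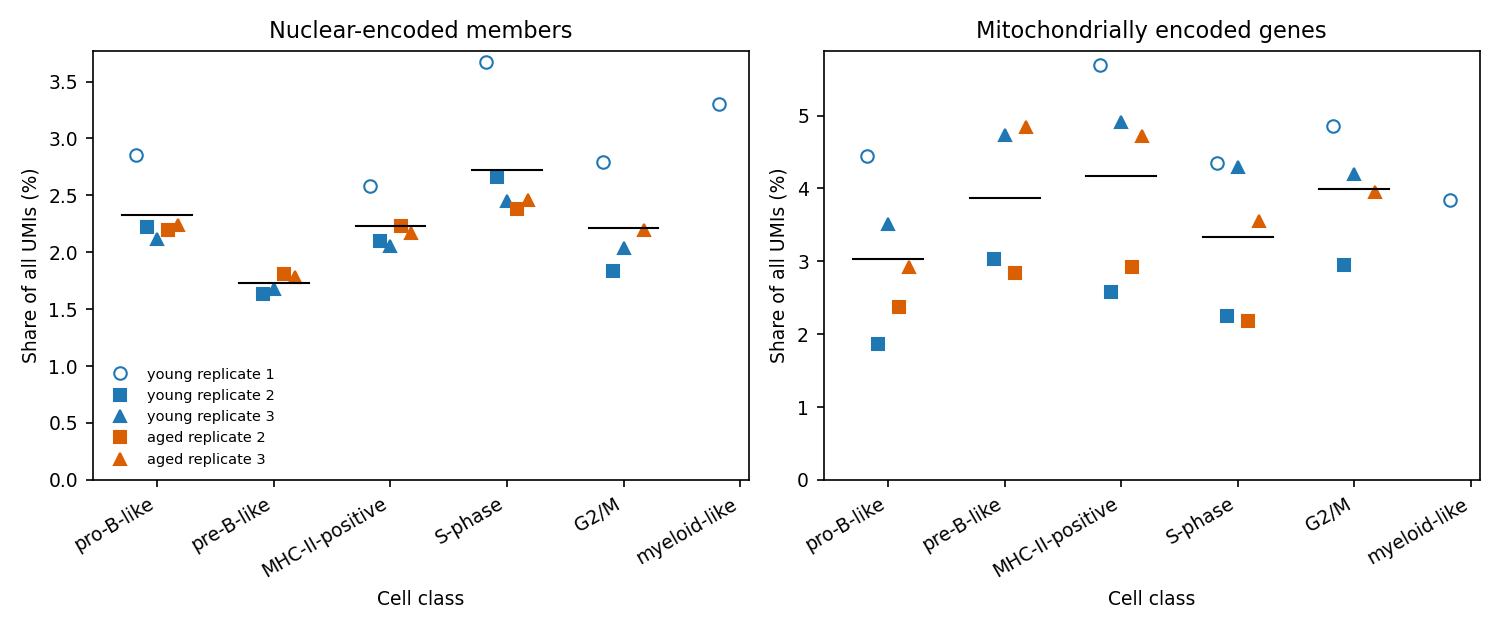
Share of all UMIs (%, y axis) from the 85 nuclear genes (left) and from the 13 mitochondrially encoded genes (right) by cell class (x axis), 1 point per library and a line at the mean of the libraries. Nuclear shares are lowest in pre-B-like cells (1.63% to 1.81%), and young replicate 1 (open circles) is highest in each B-lineage class it enters on the left, whereas on the right the replicate 2 libraries lie lowest in each B-lineage class they enter.

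The mitochondrially encoded genes did not follow that order. Their share was 4.61%, 2.48%, 4.25%, 2.23% and 3.74% in dividing cells and 5.25%, 2.70%, 4.31%, 2.69% and 4.17% in non-dividing cells. In both classes the 2 libraries of replicate 2 were the lowest, and dividing cells were lower in 5 of 5 libraries. The ratio of nuclear to mitochondrial UMIs was therefore higher in dividing cells in each library: 0.70, 0.963, 0.534, 1.07 and 0.626 against 0.503, 0.686, 0.446, 0.731 and 0.483. Barcodes with over 10% mitochondrial UMIs had been left out, which caps the second share.

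Dividing B-lineage cells had higher levels of most of these genes than non-dividing ones. Of 77 tested genes, 52 rose and 4 fell (edgeR quasi-likelihood test over 5243 genes, 5 libraries, Benjamini-Hochberg adjusted p under 0.05). Of all tested genes 26.1% were called higher and 24.3% lower. The median log2 fold change of the 77 was 0.45, against -0.03 for all tested genes, and 45 were higher in each of the 5 libraries. By complex, 21 of 35 rose in complex I, 2 of 4 in complex II, 5 of 8 in complex III, 8 of 13 in complex IV, 15 of 16 in complex V and the single cytochrome c gene. The 4 that fell were 1 gene of complex I, 1 of complex III and 2 of complex IV. Scaling by total UMIs alone moved the median of all genes to -0.14 and that of the 77 to 0.33. Such a change shifts all genes by nearly the same amount, so the distance between the medians could hardly move. With it 44 were higher and 4 lower.

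Complex V rose almost as a whole. The rotor ring of ATP synthase is built from subunit c, and Atp5g1, Atp5g2 and Atp5g3 encode the same mature peptide. Atp5g2 had 724, 838, 594, 668 and 820 CPM in dividing cells and 414, 337, 337, 344 and 310 CPM in non-dividing cells. The lowest dividing library was above the highest non-dividing one, and the log2 fold change was 1.17 (SE 0.11, adjusted p = 7.83e-10). Atp5g3 had 525, 335, 297, 343 and 351 CPM against 266, 157, 196, 164 and 173 CPM, again without overlap, with a log2 fold change of 1.07 (SE 0.12). Atp5g1 had 378, 281, 166, 285 and 258 CPM against 235, 105, 145, 117 and 140 CPM. It was higher in each library, but young replicate 3 (dividing) lay below young replicate 1 (non-dividing), and the log2 fold change was 1.02 (SE 0.15). Atp5j, coupling factor 6 in the stalk that holds the catalytic head, had 706, 494, 511, 524 and 534 CPM against 414, 229, 247, 276 and 247 CPM (log2 fold change 1.08, SE 0.11). The catalytic subunits rose less, Atp5b by 0.52 (SE 0.11) and Atp5a1 by 0.35 (SE 0.10) on the log2 scale. Atp5l, a membrane subunit, was the only tested gene of complex V that did not pass (0.06, SE 0.10, adjusted p = 0.661).

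Cytochrome c and the enzymes beside it rose too. Cycs, the soluble carrier between complexes III and IV, had 415, 281, 297, 343 and 253 CPM in dividing and 224, 172, 157, 162 and 164 CPM in non-dividing cells. All dividing values were above all non-dividing ones (log2 fold change 0.95, SE 0.12, adjusted p = 2.93e-07). Uqcr11, a small subunit of complex III, gave the largest rise of the set at 1.20 (SE 0.16), with 381, 281, 145, 239 and 201 CPM against 204, 70.5, 100.5, 94.8 and 127 CPM. Its groups overlapped only where young replicate 1 (non-dividing) exceeded young replicate 3 and aged replicate 3 (dividing). Cox5a, a nuclear subunit of the complex IV core region, had 764, 473, 477, 443 and 337 CPM against 397, 208, 314, 267 and 256 CPM (0.89, SE 0.12), with the same kind of overlap.

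The succinate dehydrogenase genes and complex I were more mixed. Sdhc, which anchors complex II in the membrane, had 65.2, 62.8, 41.5, 54.2 and 65.6 CPM in dividing and 27.6, 27.5, 33.5, 31.6 and 33.6 CPM in non-dividing cells, without overlap (1.04, SE 0.23). Sdha, the flavoprotein, rose by 0.57 (SE 0.15), while the iron-sulfur subunit Sdhb (0.21, SE 0.14) and the other anchor Sdhd (0.32, SE 0.16) did not pass, with adjusted p of 0.205 and 0.0963. In complex I the accessory gene Ndufb6 rose by 0.92 (SE 0.15) and Ndufv1, which binds NADH, by 0.91 (SE 0.19). Ndufv1 had 84.4, 134, 69.1, 104 and 84.3 CPM against 51.7, 56.7, 54.6, 56.3 and 54.1 CPM, without overlap. The core subunits did not move together: Ndufv1, Ndufv2 and Ndufs7 rose, and Ndufs1 (-0.29, SE 0.23), Ndufs3 (0.01, SE 0.15) and Ndufs8 (0.01, SE 0.13) did not pass.

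**Figure D2:**
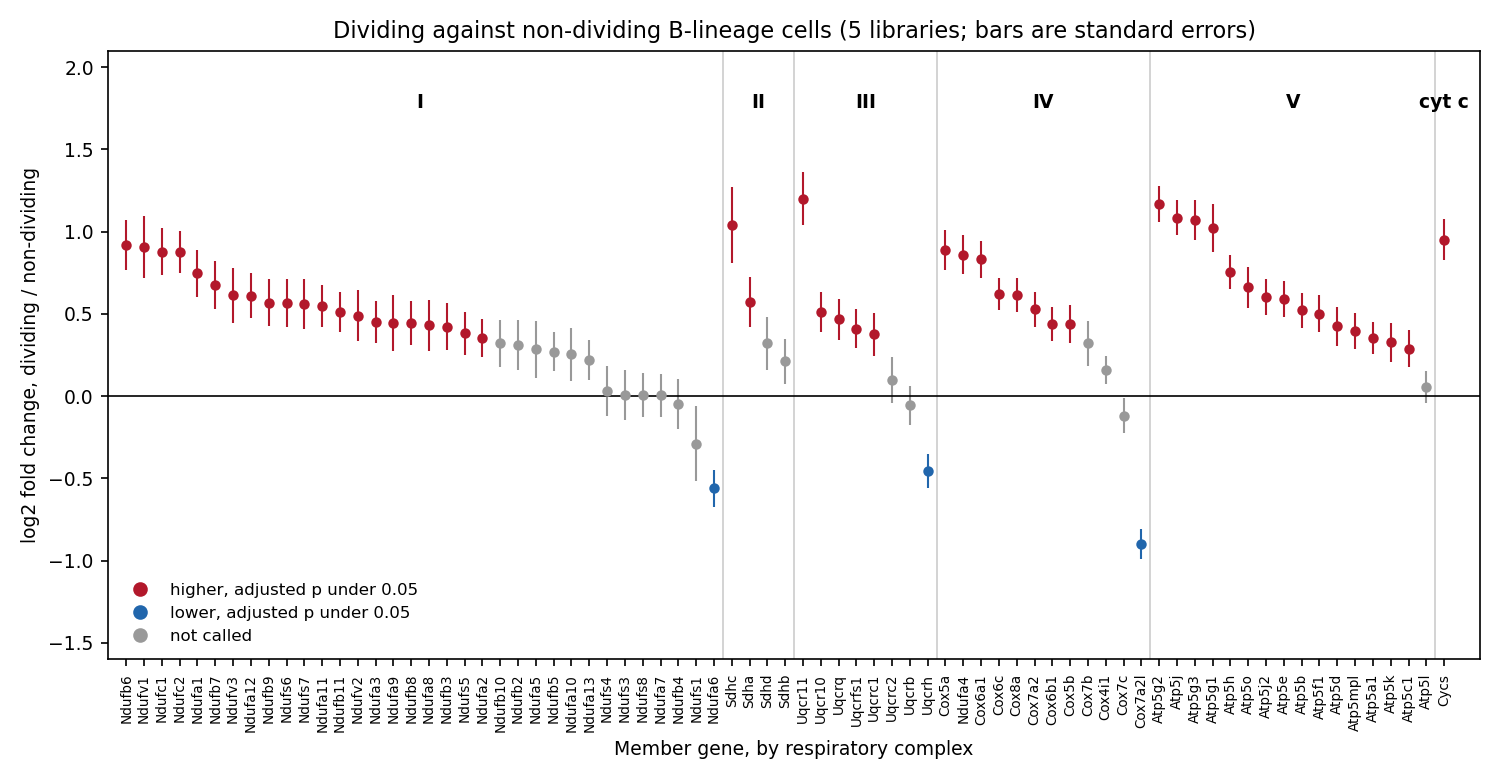
Log2 fold change of dividing over non-dividing B-lineage cells (y axis) for 75 of the 77 tested genes, grouped by complex and sorted (x axis). Points are edgeR estimates over 5 libraries and bars are standard errors, and 15 of 16 complex V genes lie above 0 and pass, whereas Ndufa6, Uqcrh and Cox7a2l lie below 0 and pass. Cox6a2, which passed with 0 UMIs in 3 dividing libraries, is not drawn.

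The 4 genes that fell included Cox7a2l, whose protein takes part in joining complexes III and IV into supercomplexes. Cox7a2l had 514, 528, 650, 709 and 590 CPM in dividing cells and 1107, 1080, 1287, 1253 and 1229 CPM in non-dividing cells. The groups were far from overlapping, with a log2 fold change of -0.90 (SE 0.09, adjusted p = 2.36e-09). Its relative Cox7a2, the common isoform in complex IV itself, rose by 0.53 (SE 0.11). Ndufa6, an accessory subunit of complex I, had 286, 256, 221, 262 and 295 CPM against 504, 349, 377, 422 and 442 CPM, also without overlap (-0.56, SE 0.11). Uqcrh, the hinge protein of complex III, had 917, 482, 380, 542 and 642 CPM against 1194, 741, 730, 797 and 869 CPM. It was lower in 5 of 5 libraries (-0.45, SE 0.10), although young replicate 1 (dividing) was above the non-dividing cells of the other 4.

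Cox6a2, the heart and muscle isoform of a complex IV subunit, was also lower in dividing cells, from few UMIs. Dividing cells gave 15, 0, 0, 0 and 1 UMIs and non-dividing cells 9, 18, 20, 21 and 32 UMIs. In CPM that was 4.57, 0, 0, 0 and 4.68 against 31.1, 31.0, 35.3, 28.9 and 46.8, without overlap (adjusted p = 4.24e-06). The 3 zeros rest on 24, 38 and 30 dividing cells, and no fold is given against them. A Cox6a2 UMI was found in 8.78% of pre-B-like, 7.27% of MHC-II-positive, 0.678% of pro-B-like and 2.06% of dividing cells, at median depths of 1936, 2268, 2872 and 4256 UMIs. Of these B-lineage classes, the pair with the higher shares had the lower depths. Myeloid-like cells had the highest share, 22 of 187 cells or 11.8%, at a median depth of 9459 UMIs. Their level in young replicate 1 was 19.3 CPM, below the 31.1 CPM of its non-dividing B-lineage cells. Of their 53 UMIs, 38 came from young replicate 1, 11 from 4 cells of young replicate 3 and 4 from 6 cells of aged replicate 3. The 22 endothelial-like cells had none, which allows a share of up to 13.6%, so background from free RNA could not be set from them. Its common partner Cox6a1 rose in dividing cells: 721, 452, 539, 370 and 464 CPM against 449, 255, 284, 280 and 262 CPM (0.83, SE 0.11), in 5 of 5 libraries and with overlap through the non-dividing cells of young replicate 1.

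The other tissue isoforms were too rare to be tested. Cox4i2, the oxygen-sensitive form of Cox4i1, had 23 UMIs in all kept cells, Cox7a1 25, Ndufa4l2 2 and Cox6b2, a testis isoform, 212. Of the Cox6b2 UMIs 108 were in myeloid-like cells, where 38.5% of cells held one at a median of 9459 UMIs, against 7.55% of dividing and 2.97% of non-dividing B-lineage cells. Of the common partners, Cox4i1 did not pass between dividing and non-dividing cells (0.16, SE 0.09, adjusted p = 0.131), nor did Cox7b (0.32, SE 0.14, adjusted p = 0.0551), while Cox6b1 rose by 0.44 (SE 0.10), Cox8a by 0.62 (SE 0.10) and Ndufa4 by 0.86 (SE 0.12).

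Neighbouring gene lists moved by different amounts between the same 2 classes. Of 12 tested mitochondrially encoded genes, mt-Nd1 rose by 0.26 (SE 0.07), mt-Co1 fell by 0.24 and the other 10 did not pass, mt-Nd5 among them (-0.23, SE 0.12). Carriers and import proteins rose in 12 of 16 with a median of 0.70, among them the adenine nucleotide carrier Slc25a5 (0.78, SE 0.10), the translocase subunit Timm50 (1.94, SE 0.20) and the chaperonin Hspd1 (1.14, SE 0.15). Of the glycolysis genes 7 of 10 rose and 1 fell, with Gapdh at 1.62 (SE 0.12), Ldha at 1.54 (SE 0.15) and Pgk1 at 1.40 (SE 0.17). Mitochondrial ribosomal proteins rose in 26 of 73 and fell in 2, with Mrpl18 at 1.67 (SE 0.16) and Mrpl12 at 1.23 (SE 0.18).

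Citric acid cycle genes rose in 4 of 12, among them Idh3a (1.46, SE 0.25), Fh1 (1.17, SE 0.23) and Mdh2 (0.66, SE 0.13). Of 23 assembly factors of the complexes 2 were higher and 6 lower, with a median of -0.09, beside 26.1% higher, 24.3% lower and a median of -0.03 for all tested genes. Sdhaf1 (-1.05, SE 0.29) and Sdhaf2 (-0.66, SE 0.18), which mature complex II, and Uqcc3 (-0.85, SE 0.17), which matures complex III, fell. The 2 that rose were Ndufaf4 (1.09, SE 0.33) and Fmc1 (0.67, SE 0.23). Of 6 regulators of mitochondrial genes none rose and 2 fell, the GABP partner Gabpb1 (-0.58, SE 0.15) and the nuclear receptor Esrra (-1.37, SE 0.42), while Gabpa (0.30, SE 0.25) did not pass.

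Markers of other cells moved with this contrast in part. Erythroid markers summed to 67.0 to 8189 CPM in dividing and 49.9 to 179 CPM in non-dividing cells, with the high values in young replicate 3 and aged replicate 3, where 1 and 2 dividing cells carried more than 1% of such UMIs. Without those cells 52 genes were higher and 4 lower. Endothelial markers summed to 60.7 to 100.5 CPM in dividing and 131 to 239.9 CPM in non-dividing cells, without overlap. Monocyte markers summed to 246 to 370.2 CPM against 307 to 619 CPM, lower in dividing cells in 5 of 5 libraries, and neutrophil markers to 4.19 to 232 CPM against 1.72 to 248 CPM. The part of these 3 lists in the result was not tested. Calling cells by a few markers each in place of clusters left 21 of 75 higher and 1 lower, beside 494 and 324 of 3772 genes. Against pro-B-like cells alone 29 of 76 were higher and 3 lower, beside 899 and 834 of 3438 genes, and Ndufa4 stood at -0.003. Against MHC-II-positive cells alone 27 of 74 were higher and 3 lower, beside 661 and 509 of 2481 genes, and Cox4i1 stood at -0.04.

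Dividing cells were named S-phase, for the phase when DNA is copied, or G2/M. G2/M markers summed to 1399 to 3259 CPM in S-phase and 4504 to 6493 CPM in G2/M cells. S-phase markers summed to 2686, 3965, 3864 and 3083 CPM against 2675, 5203, 4926 and 3767 CPM (young replicates 1, 2 and 3 and aged replicate 3). Except in young replicate 1 they were higher in G2/M cells, so they did not set the classes apart. In both classes all 11 S-phase and all 14 G2/M markers had a UMI in at least 10% of cells. S phase and G2/M are used below as names of the classes only. The genes of the set were higher in the S-phase class than in the G2/M class. Of 74 genes tested, 43 rose and none fell (edgeR, 1702 genes, 4 libraries without aged replicate 2, adjusted p under 0.05). At unadjusted p under 0.05 the numbers were 52 and 0, and DESeq2 called 19 higher and 0 lower. Of all tested genes 20.1% were higher and 18.7% lower. The median was 0.51 against -0.03 for all tested genes, and 35 were higher in each library. Complex V again led with 13 of 16, then complex IV with 9 of 12, complex I with 17 of 34 and complex III with 4 of 8, and none of 3 in complex II passed.

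Ndufa4 is a subunit first assigned to complex I and now to complex IV. It had 1207, 568, 656 and 632 CPM in the S-phase class and 627, 267, 328 and 332 CPM in the G2/M class (young replicates 1, 2 and 3 and aged replicate 3). It was higher in 4 of 4 libraries (1.10, SE 0.14, adjusted p = 1.69e-06), and the groups overlapped through the G2/M cells of young replicate 1. Atp5g1 had 518, 331, 248 and 299 CPM against 243, 178, 62.6 and 208 CPM, without overlap (1.16, SE 0.19). Atp5b, the catalytic beta subunit, had 798, 1174, 669 and 752 CPM against 498, 585, 610 and 477 CPM, without overlap (0.78, SE 0.14). Cox7b, a small X-linked subunit of complex IV, had 451, 262, 149 and 231 CPM against 229, 89.0, 125 and 156 CPM (1.06, SE 0.19), higher in 4 of 4 libraries with overlapping groups.

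Ndufb2 (1.15, SE 0.23), Ndufb5 (0.83, SE 0.19) and Ndufb3 (0.82, SE 0.19), accessory subunits in the membrane arm of complex I, rose, as did Cox5a (0.82, SE 0.15), Atp5c1, the central stalk subunit (0.81, SE 0.16), and Atp5g3 (0.79, SE 0.17). Uqcr11 had the largest estimate (1.23, SE 0.23), but aged replicate 3 went the other way with 188 CPM in S phase and 218 CPM in G2/M. The genes lowest in the order, Ndufa6 (-0.13, SE 0.17) and Ndufs8 (-0.12, SE 0.18), did not pass. Cox7a2l had 477, 525, 706 and 623 CPM against 549, 534, 579 and 550 CPM and did not pass (0.11, SE 0.14). Cycs did not pass either (0.38, SE 0.17, adjusted p = 0.0884).

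In the other lists all 8 tested glycolysis genes were higher in the S-phase class, Ldha by 2.17 (SE 0.20). Of 14 carriers and import proteins 9 rose, with Hspd1 at 2.05 (SE 0.20), while Gabpb1 fell by 1.505 on the log2 scale. S-phase cells also held more of the pro-B marker list, 1947 to 3616 CPM against 885 to 1208 CPM in G2/M, and less of the MHC-II-positive list, 359 to 1647 CPM against 1464 to 2283 CPM, in 4 of 4 libraries. The part of both in the result was not tested. Erythroid markers summed to 62.4 to 171 CPM in S phase and to 44.9 to 17930 CPM in G2/M, where young replicate 3 had 13650 and aged replicate 3 17930 CPM. Without the erythroid cells 39 genes were higher and 0 lower. The count of 43 also depended on settings. Without young replicate 1 it was 11 of 69, beside 178 higher of 1465 genes. Without young replicate 2 it was 25 of 74, beside 292 of 1742 genes. Without a term for the library it was 0, beside 80 of 1702 genes, and with per-cell marker calls 0, beside 62 of 1679. DESeq2 gave 19, beside 229 of 1702 genes. Scaling by total UMIs gave 20 higher with the median of all genes at -0.21. That scaling also turned the split over all genes from 342 higher and 319 lower to 242 higher and 487 lower.

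Pro-B-like and MHC-II-positive cells, the early and the late resting stage, differed in few of these genes. Of 73 tested, 4 rose and 1 fell in pro-B-like cells (edgeR, 2116 genes, 5 libraries, adjusted p under 0.05), against 15.5% higher and 14.4% lower of all tested genes. The median was 0.04, against 0.00 for all. The share of the set that was called was thus below the background in both directions.

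Ndufa4 had 829, 501, 663, 375 and 628 CPM in pro-B-like and 317, 276, 290, 279 and 341 CPM in MHC-II-positive cells. The lowest pro-B-like library was above the highest MHC-II-positive one (1.01, SE 0.15, adjusted p = 1.79e-06). Cox7a2l had 1705, 1331, 1843, 1606 and 1776 CPM against 759, 1037, 819, 1051 and 790 CPM, also without overlap (0.91, SE 0.11, adjusted p = 3.82e-08). Uqcr11 had 305, 123, 113, 125 and 163 CPM against 156, 69.1, 111, 64.3 and 116 CPM, with overlapping groups and a rise in 5 of 5 libraries (0.62, SE 0.23, adjusted p = 0.0349). Uqcrb, a subunit near the ubiquinone site of complex III, passed as well (0.43, SE 0.16, adjusted p = 0.0409), with 552, 362, 372, 315 and 353 CPM against 359, 363, 247, 214 and 256 CPM. Its young replicate 2 was level between the classes.

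Uqcrq, another small subunit of complex III, fell: it had 286, 214, 245, 283 and 305 CPM in pro-B-like and 365, 328, 367, 536 and 395 CPM in MHC-II-positive cells, without overlap (-0.56, SE 0.16, adjusted p = 0.00623). Below the threshold lay Sdha (0.54, SE 0.27), Atp5a1 (-0.29, SE 0.12), Ndufa11 (-0.45, SE 0.21), Cox4i1 (-0.22, SE 0.10) and Ndufa6 (-0.30, SE 0.14). Of the 12 tested mitochondrially encoded genes 10 fell in pro-B-like cells, with mt-Nd1 at -0.58 (SE 0.08) and a list median of -0.48. Glycolysis genes rose in 5 of 6, Ldha by 0.66 (SE 0.23). Only 2 of the 85 were higher when young replicate 1 or aged replicate 3 was left out, under DESeq2, without filtering, or in a fit lacking the library term. Ndufa4 and Cox7a2l passed under each of the 13 alternatives run, with adjusted p of at most 0.0102 and 0.00129, and without young replicate 2 or aged replicate 3 the lower genes were 2.

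Pre-B-like cells, which are small and resting, had lower levels of part of the set than MHC-II-positive cells. Of 75 tested, none rose and 15 fell (edgeR, 2899 genes, 4 libraries without young replicate 1, adjusted p under 0.05), against 3.41% higher and 4.55% lower of all tested genes. At unadjusted p under 0.05 none rose and 32 fell, and DESeq2 called 0 higher and 3 lower. The median was -0.33 against 0.00 for all, and 32 were lower in each library. The 15 were 4 of 35 in complex I, 1 of 8 in complex III, 5 of 12 in complex IV and 5 of 16 in complex V. The MHC-II-positive cells stand in both of the stage comparisons, which are therefore not independent.

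Ndufa4, higher in pro-B-like cells, was lower here: it had 105, 168, 168 and 171 CPM in pre-B-like and 276, 290, 279 and 341 CPM in MHC-II-positive cells (young replicates 2 and 3, aged replicates 2 and 3). The groups did not overlap (-1.003, SE 0.19, adjusted p = 0.000109). A Ndufa4 UMI was found in 174 of 649 pre-B-like, 117 of 234 MHC-II-positive and 218 of 295 pro-B-like cells, whose median depths were 1936, 2268 and 2872 UMIs. Uqcrq had 203, 232, 238 and 230 CPM against 328, 367, 536 and 395 CPM, without overlap (-0.82, SE 0.17, adjusted p = 0.000387). Cox6a1 had 235, 223, 235 and 230 CPM against 354, 384, 300.2 and 372 CPM, without overlap (-0.65, SE 0.17, adjusted p = 0.00785).

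In complex I, Ndufa8 fell by 0.96 (SE 0.26) and Ndufc2 by 0.88 (SE 0.24), and Ndufs5 (-0.81, SE 0.22) and Ndufa13 (-0.68, SE 0.18) passed as well. All 4 are accessory subunits. Ndufa8 had 69.8, 84.2, 104 and 62.1 CPM against 173, 137, 172 and 124 CPM, without overlap. In complex V, Atp5f1 (-0.68, SE 0.16) and Atp5h (-0.59, SE 0.15), of the stator stalk, and the small subunit gene Atp5mpl (-0.57, SE 0.16) were lower. Atp5h had 308, 341, 265 and 311 CPM against 423, 486, 429 and 503 CPM, without overlap. The highest estimates, Ndufs1 (0.49, SE 0.37), Sdha (0.31, SE 0.29), Ndufa9 (0.21, SE 0.32), Cox7a2l (0.16, SE 0.10) and Uqcrc1 (0.12, SE 0.23), did not pass.

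None of the 12 tested mitochondrially encoded genes passed in that comparison, at a median of 0.05. Gabpb1 rose by 0.70 (SE 0.21), Mdh2 fell by 0.97 and Gapdh by 0.64. The count of 15 depended on settings: leaving out 1 library gave 4 to 14, with 4 without aged replicate 3, 5 without young replicate 3 and 9 without young replicate 2. DESeq2 gave 3, no filter on low counts 2, a fit with no term for the library 3, and per-cell marker calls or a mitochondrial limit of 20% gave 0. With the marker calls all 15 kept their direction. At the 20% limit, with 3 libraries, only 8 of the 14 still tested did. There the median of the set was -0.101, with 25 genes positive and 40 negative. Aged replicate 2 entered with 13 MHC-II-positive cells. Set against pro-B-like cells in place of MHC-II-positive ones, 1 of 76 was higher and 27 were lower in pre-B-like cells. Of all 3695 genes tested there, 539 were higher and 565 lower, and Cox7a2l stood at -0.64.

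**Figure D3:**
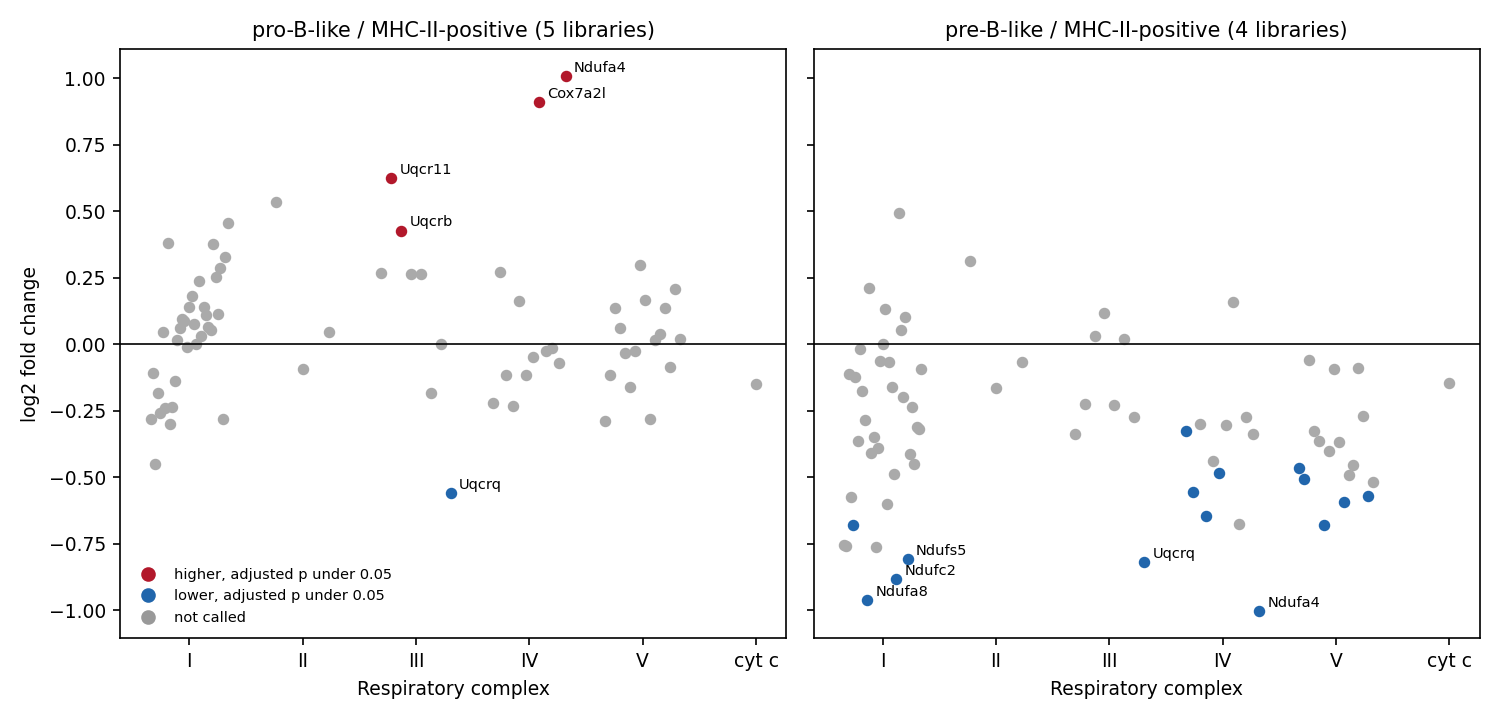
Log2 fold change (y axis) by respiratory complex (x axis) of pro-B-like over MHC-II-positive cells (left, 73 genes, 5 libraries) and of pre-B-like over MHC-II-positive cells (right, 75 genes, 4 libraries), 1 point per gene, coloured by the edgeR call. Ndufa4 is at 1.01 on the left and -1.003 on the right, and both panels share the MHC-II-positive cells.

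Side by side, single genes took different orders over the 5 B-lineage classes. Cox7a2l was highest in pro-B-like cells (1652 ± 199.9 CPM, SD, n = 5), lower in pre-B-like (1027 ± 31.1, n = 4) and MHC-II-positive cells (891 ± 141, n = 5), and lowest in S phase (606 ± 103, n = 5) and G2/M (553 ± 18.5, n = 4). The last pair overlapped, and so did the middle pair. Ndufa4 was highest in S phase (701 ± 295 CPM, SD, n = 5) and pro-B-like cells (599 ± 171, n = 5), whose ranges overlapped, then in G2/M (389 ± 162, n = 4) and MHC-II-positive cells (301 ± 27.6, n = 5), and lowest in pre-B-like cells (153 ± 32.3, n = 4). G2/M overlapped with each of its neighbours in that order, and no pre-B-like library reached the lowest MHC-II-positive one. Atp5g2 was highest in S phase (810 ± 144 CPM, SD, n = 5) and G2/M (614 ± 70.1, n = 4) and lay between 292 and 404 CPM on average in the 3 resting stages. S phase and G2/M overlapped, and no resting library reached either.

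**Figure D4:**
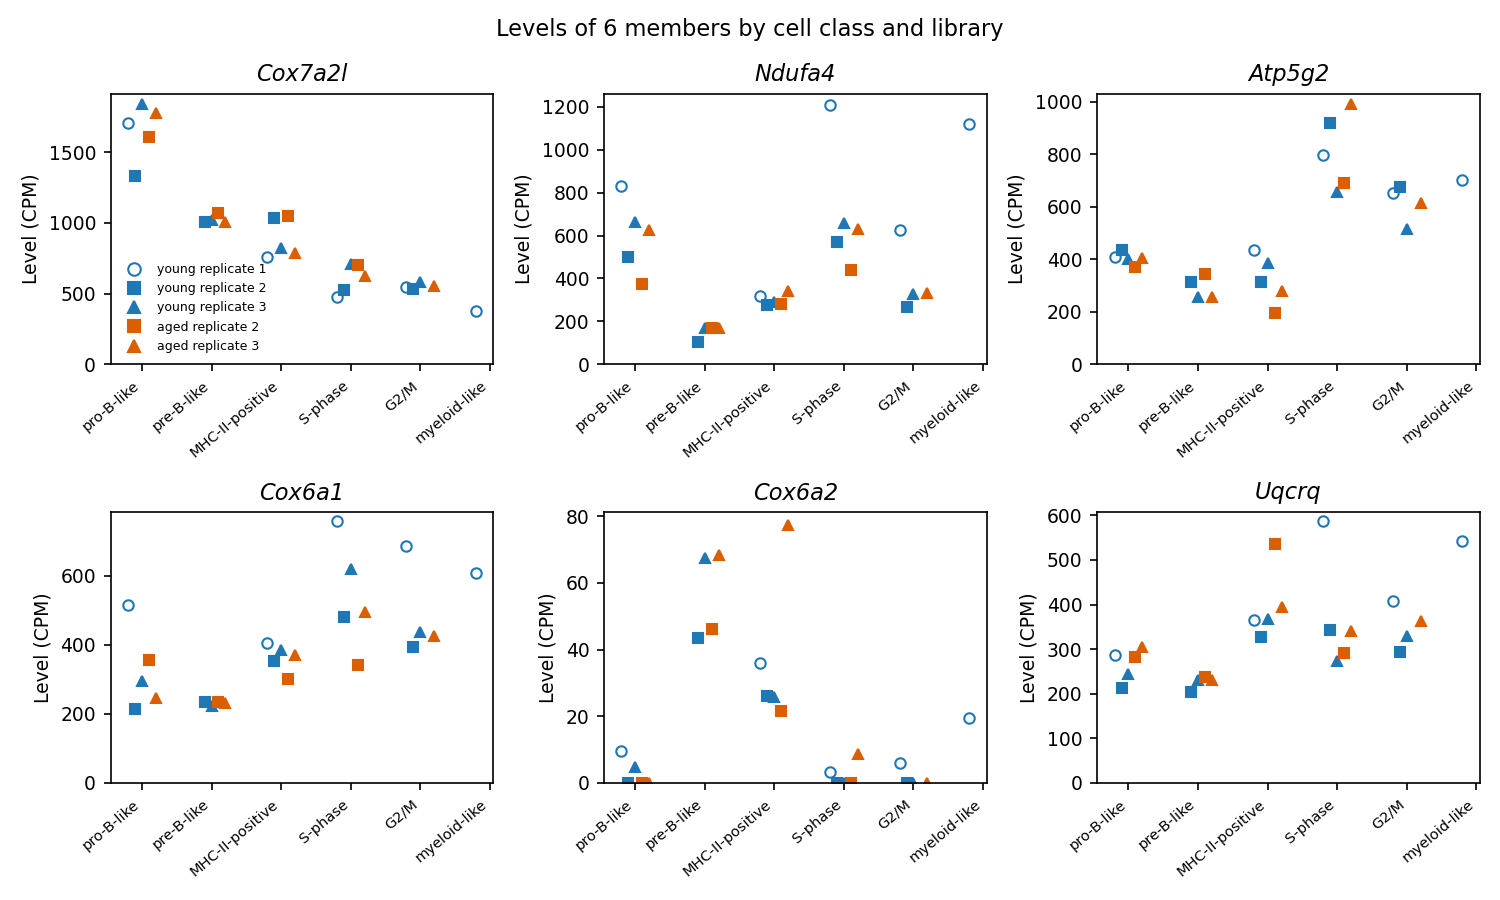
Levels (CPM, y axis) of 6 genes in 6 cell classes (x axis), 1 point per library, with classes of fewer than 10 cells in a library left out. Cox7a2l is highest in pro-B-like cells, Ndufa4 is lowest in pre-B-like cells, and Atp5g2 is highest in the S-phase class on average. Cox6a2 lies at or below 9.52 CPM in pro-B-like, S-phase and G2/M cells and between 21.4 and 77.4 CPM in pre-B-like and MHC-II-positive cells.

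Myeloid-like cells could be described in young replicate 1 only, where 175 of them stood beside 114 non-dividing B-lineage cells. With 1 library there is no test, and the intervals are exact Poisson intervals at 95% that cover counting error only. Genes were described where the 2 sums held at least 20 UMIs together, and by a ratio of at least 2. Of 78 such genes of the set 7 were at least 2-fold higher and 1 at least 2-fold lower in myeloid-like cells, where 19.1% and 22.2% of all such genes were. The median ratio was 1.31, against 0.903 for all. The myeloid-like cells carried 13980 CPM of neutrophil markers, 1511 CPM of monocyte markers, 1306 CPM of basophil markers, 2943 CPM of bone-forming markers, 438 CPM of T and NK cell markers and 779.5 CPM of B-lineage markers, so it held RNA of several types, and the part of this in the ratios was not tested.

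Ndufa4 had 1120 CPM (1074 to 1168) in myeloid-like and 490 CPM (413 to 577) in non-dividing B-lineage cells, a ratio of 2.29. Cycs had 564 CPM (532 to 599) against 224 CPM (173 to 286), a ratio of 2.52, and Atp5g1 566 CPM (534 to 601) against 235 CPM (182 to 297), a ratio of 2.41. Uqcr11 (2.39), Cox5a (2.12), Sdhc (2.60) and Cox6b2 (2.61, from 106 and 6 UMIs) were also past 2-fold. Cox7a2l was the gene on the other side, with 376 CPM (349 to 404) against 1107 CPM (990 to 1235), 2.95-fold lower. Dividing B-lineage cells of the same library lay closer to the myeloid-like ones for most of the higher genes. They had 912 CPM of Ndufa4, 414.5 of Cycs, 378 of Atp5g1, 381 of Uqcr11, 764 of Cox5a and 65.2 of Sdhc, but 15.85 of Cox6b2. S-phase markers summed to 1132 CPM in the myeloid-like and 438 CPM in the non-dividing B-lineage cells, and G2/M markers to 1141 and 417 CPM. The part of both marker lists was not tested either. With per-cell marker calls 3 were past 2-fold higher and 7 past 2-fold lower.

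No gene of the set passed the test between aged and young libraries. In non-dividing B-lineage cells 0 of 77 passed (edgeR, 6544 genes, 3 young and 2 aged libraries, adjusted p under 0.05), where 0.0% of all tested genes passed. At unadjusted p under 0.05 there were 0 of the set and 139 of all genes, and DESeq2 called 0. The median log2 fold change, aged over young, was -0.17, against -0.01 for all genes, and 62 of 77 were negative. That median rested on young replicate 1. The genes' median distance from the mean of the 5 libraries was 0.38 in young replicate 1, -0.15 in young replicate 2, -0.10 in young replicate 3, -0.05 in aged replicate 2 and -0.03 in aged replicate 3. Both aged libraries thus lay inside the young range, and without young replicate 1 the median was 0.03.

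Dividing cells gave the same picture. None of 76 passed (edgeR, 3704 genes), 0 of the set and 125 of all genes had an unadjusted p under 0.05, and DESeq2 called 0. The median was -0.26, and 0.02 without young replicate 1. In library order the distances were 0.40, -0.07, -0.19, -0.02 and -0.08, with both aged libraries again inside the young range.

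**Figure D5:**
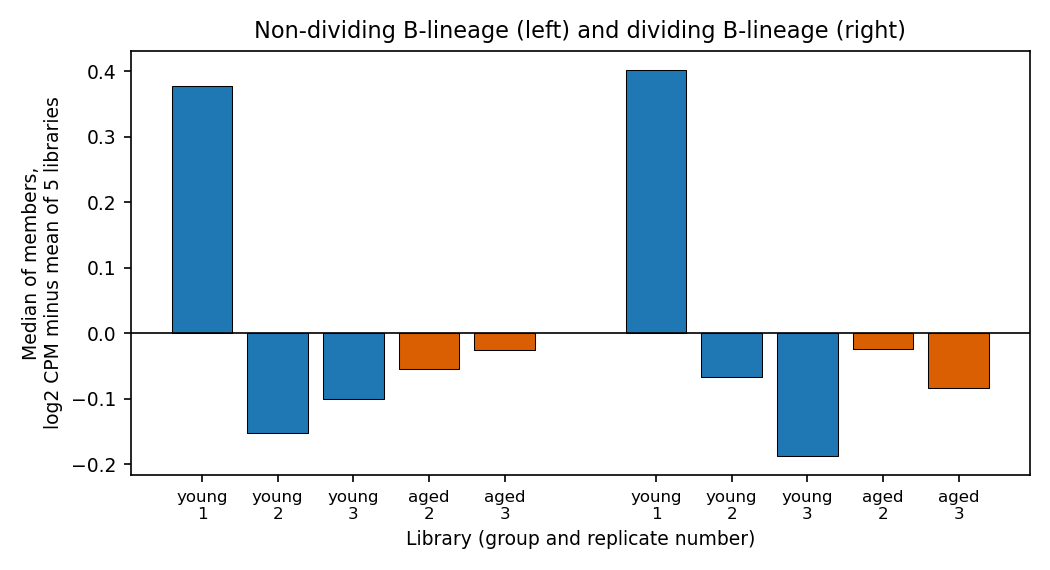
Median over the genes of log2 CPM minus the mean of the 5 libraries (y axis) for each library (x axis), in non-dividing (left) and dividing (right) B-lineage cells, young in blue and aged in orange. Young replicate 1 is at 0.38 and 0.40 and the other 8 bars lie between -0.19 and -0.02.

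Among the genes with the smallest p in non-dividing cells, Ndufs1, a core subunit of complex I, had 38.0, 70.5 and 38.8 CPM in young and 87.9 and 62.9 CPM in aged non-dividing cells, so that aged replicate 3 lay below young replicate 2 (0.53, SE 0.32, adjusted p = 1.0). Ndufa10 had 89.7, 77.4 and 82.8 CPM in young and 114 and 117 CPM in aged cells, with no overlap (0.42, SE 0.27, adjusted p = 1.0). Atp5h had 580, 358 and 351 CPM in young and 333 and 354 CPM in aged cells, where young replicate 1 alone stood apart (-0.38, SE 0.29). In dividing cells Ndufb3 had 253, 176 and 138 CPM in young and 140 and 122 CPM in aged cells (-0.70, SE 0.34, adjusted p = 0.998).

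Others named by p in non-dividing cells were Ndufa3 (0.14, SE 0.26), Cox6a2 (0.16, SE 0.38) and Ndufa1 (0.10, SE 0.29) above 0, and Ndufs6 (-0.56, SE 0.35), Ndufb3 (-0.49, SE 0.30), Ndufb6 (-0.49, SE 0.37) and Atp5f1 (-0.35, SE 0.26) below. In dividing cells they were Sdha (0.37, SE 0.30), Ndufa9 (0.27, SE 0.32), Cox7a2l (0.14, SE 0.31), Ndufa12 (0.11, SE 0.30) and Uqcrc2 (0.10, SE 0.30) above 0, and Cox5a (-0.66, SE 0.35), Cox8a (-0.62, SE 0.33), Ndufa13 (-0.56, SE 0.31) and Cox5b (-0.61, SE 0.34) below. The difference between dividing and non-dividing cells was set against age with an interaction term. None of 77 genes of the set and 0 of 5243 genes passed, 1 of the set had an unadjusted p under 0.05, and the median difference, aged minus young, was -0.12. On simulated counts the age test in non-dividing cells (6544 genes) was judged on changed genes that passed the filter on low counts. It recovered 14.3% of those changed by 1 log2 unit and 87.1% of those changed by 2 units, and smaller changes were not simulated. The simulation gave every gene the same dispersion and no library effect, so recovery in the real data can be lower.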

How the data were processed

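The authors deposited raw counts of UMIs for each gene in each barcode. The submitters' processing notes name Cell Ranger, mouse build mm10, R 3.5.2, edgeR 3.24.3 and DESeq2 1.22.2, without roles. The Cell Ranger version is not given in the sources used here. The genes and lists were chosen with earlier results of these data known. Symbols matched 27645 of 27998 identifiers, and positions came from GENCODE M21. Barcodes with at least 500 genes, 1000 UMIs and at most 10% mitochondrial UMIs were kept (2116 of 3384). Clustering (scanpy 1.11.5, leidenalg 0.10.2, 2000 variable genes without the 85, 30 components, 15 neighbours, resolution 0.8) gave 10 clusters, named from marker lists. The 49 kept cells that Scrublet called as doublets stayed in. Counts summed per library and class were tested with edgeR 4.0.16 (quasi-likelihood F test, TMM, filterByExpr) in R 4.3.3, with the library as a term between classes. A standard error is the log2 fold change divided by the square root of F. Named genes were up to 10 per direction with the largest change among those called whose mean log2 CPM reached 5 and whose direction was shared by all libraries. Where fewer passed, the smallest p filled up to 5, and c subunit, complex II, cytochrome c and isoform genes were always named. Other complex I core, complex V catalytic and marker genes were named after their values were seen. Up to 3 genes were named per other list, and for the assembly factors also those that rose. Simulated counts had the same dispersion for every gene and no difference between libraries beyond total UMIs, so recovery in the real data can be lower. On them recovery was counted only among changed genes that passed the filter on low counts. At 2 log2 units 88, 84, 81 and 85 of 100 changed genes passed it in the 4 class comparisons, and 100% of those were recovered. Of those past the filter and changed by 1 unit, dividing against non-dividing cells (5243 genes) recovered 84.9%, S phase against G2/M (1702 genes) 100%, pro-B-like against MHC-II-positive cells (2116 genes) 91.4% and pre-B-like against MHC-II-positive cells (2899 genes) 80.7%. The alternatives were DESeq2 1.42.0, other scaling, filters, doublets, clusters, marker gates, libraries left out and the replicate number as a block. Those added after seeing the data were single stages as the other class, cluster 6 or erythroid cells left out, thinned sums, another TMM gene set and the interaction with age. The values of 1 tested complex I gene are not reported here by name, though it stands in all counts.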

Additional observations from a re-analysis of the deposited data

How the results depend on the processing

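The smallest sums tested were 46638 UMIs (13 MHC-II-positive cells of aged replicate 2) and 63948 UMIs (21 G2/M cells of young replicate 3). Per-cell marker gates define cells otherwise and change the classes as well as the counts. Of the repeats of counts and medians 180 kept their size or side, 34 moved and 5 reversed, and for single genes 1097 kept direction and side of the threshold, 122 lost the call, 6 gained one and 31 changed direction. The cause of each change below was not tested.

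Between dividing and non-dividing cells, 21 of 75 were higher and 1 lower with per-cell marker gates, beside 494 and 324 of 3772 genes. Against pro-B-like cells 29 of 76 were higher (Ndufa4 at -0.003), beside 899 of 3438 genes. Against MHC-II-positive cells 27 of 74 were higher (Cox4i1 at -0.044), beside 661 of 2481. With sums thinned to the smallest it was 33 of 73, beside 611 of 2373. Leaving out 1 library gave 45 to 52 higher. Between S phase and G2/M, 20 were higher by total UMIs, 19 with DESeq2, and 0 with gates (Ndufb3 at -0.13) or no term for the library. Leaving out 1 library gave 11 of 69 (without young replicate 1, beside 178 of 1465 genes) to 49 of 75 (beside 411 of 2241). At a mitochondrial limit of 20% Ndufa6 was at 0.058 and Ndufs8 at 0.02.

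Between pro-B-like and MHC-II-positive cells, 2 were higher with DESeq2, no filter, gates, the 20% limit or no library term. With DESeq2 and at the 20% limit 0 were lower. Leaving out 1 library gave 2 to 3 higher and 1 to 2 lower. At that limit, with 3 libraries, Cox4i1 was at 0.006, Ndufa11 at 0.214, Ndufa6 at 0.543 and Sdha at -0.042.

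Between pre-B-like and MHC-II-positive cells, 3 were lower with DESeq2 or no library term, 2 with no filter and 0 with gates or the 20% limit. Leaving out 1 library gave 4 to 14 lower, with Ndufa9 at -0.082 (without aged replicate 3) to 0.624 and Uqcrc1 at -0.055 (without aged replicate 2) to 0.221. At the 20% limit Atp5f1 was at 0.037, Atp5h at 0.103, Ndufs5 at 0.561 and Uqcrc1 at -0.101. Against pro-B-like cells 1 of 76 was higher and 27 lower, beside 539 and 565 of 3695 genes. Cox7a2l was then at -0.642, Ndufa9 at -0.013, Sdha at -0.332 and Uqcrc1 at -0.179.

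For age, the median of the set in non-dividing cells was 0.053 within pre-B-like cells and ran from -0.3 to 0.031 when 1 library was left out, the last without young replicate 1. With the replicate block, which sets young and aged libraries of the same number side by side, it was 0.033 in non-dividing and 0.021 in dividing cells, and 0 of the set passed. Over all genes the block called 3 higher and 22 lower in non-dividing and 3 higher and 4 lower in dividing cells. The labels do not say that a number marks a shared animal or batch, so the numbers are not taken as pairs. Deviations of same-numbered libraries from their group mean correlated at 0.439 in non-dividing and 0.22 in dividing cells. With 2 libraries per group both numbers give the same value. Whether the numbers mark pairs was not tested. In dividing cells the median ran from -0.384 to 0.021 when 1 library was left out, the last without young replicate 1. In non-dividing cells, leaving out 1 library gave -0.278 to 0.503 for Cox6a2, -0.186 to 0.332 for Ndufa1 and -0.073 to 0.321 for Ndufa3, each lowest without aged replicate 3. Ndufa1 was at -0.041 without young replicate 2, -0.014 with gates and -0.038 within MHC-II-positive cells, Ndufa3 at -0.144 within pro-B-like and Ndufb6 at 0.103 within pre-B-like cells. In dividing cells, leaving out 1 library gave -0.056 (without young replicate 2) to 0.321 for Ndufa12 and -0.1 (without aged replicate 3) to 0.28 for Uqcrc2. Ndufa12 was at -0.217 with gates and Uqcrc2 at -0.019 with the block. Among myeloid-like cells, 3 were at least 2-fold higher and 7 at least 2-fold lower with gates. Other scaling, DESeq2, filters, the library term and libraries left out were not run for that single library.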
